A study of Mus musculus with 6 samples.

Results

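Apoe, Lpl, Abca1 and Abcg1 are 4 of the 32429 genes counted in live CD45+ cells sorted from mouse hippocampi, and they were chosen as named genes that carry, break down and export lipid. Their levels were read in every library, in every deposited cell type and in every deposited microglial cluster, both for all microglia and for microglia with at least 2.5% of their UMIs (unique molecular identifiers, counted transcripts) in ribosomal protein genes. Mice of the strain labelled BC57BL/6 went through learned helplessness, in which inescapable foot shocks are followed by a test of escape. The single-cell libraries were 5′ droplet libraries. The 6 groups were non-shocked mice, acute non-helpless and acute helpless mice, and 3 chronic groups retested weekly for 3 weeks. All shocked groups, acute and chronic, had 180 shocks of 0.3 mA, then 30 trials of 24 s. The chronic groups were non-helpless mice, non-recovered mice, and recovered mice, whose helplessness had gone by the last retest. No group carried a transgene or a drug according to the labels, and the sources used here give neither their sex nor how many mice went into a library. With 1 library per group there were no replicates, no test between groups was possible, and every 95% interval below covers counting error only.

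Apoe encodes apolipoprotein E, the main protein of the lipid-carrying particles of the brain, which astrocytes make in bulk and microglia make mostly in reactive states. Lpl encodes lipoprotein lipase, which releases fatty acids from such particles and is, with Apoe, a known marker of disease-associated microglia. Abca1 and Abcg1 encode transporters that pass cholesterol from the cell membrane to lipid-poor apolipoproteins and to lipoprotein particles, and all 4 genes are known targets of the sterol-sensing nuclear receptors LXR in macrophages.

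The members lie apart in the genome (GRCm38/mm10, GENCODE M21). Apoe spans chromosome 7 from 19696109 to 19699188 on the minus strand, a gene of 3.08 kb of which 69.4% is exon. Lpl covers 27.0 kb of chromosome 8 from 68880491 to 68907448 on the plus strand, and Abca1 covers 129 kb of chromosome 4 from 53030787 to 53159895 on the minus strand. Abcg1 lies on chromosome 17 from 31057675 to 31117988 on the plus strand and overlaps the small rRNA gene Gm25447 on the same strand, so reads of the 2 could be split by the counting. The direct repeat that LXR is known to bind, searched on both strands as GGTCANNNNNGGTCA, was in 25 of 32851 mouse promoter windows of 300 bases (0.0761%), none of them a member's. A looser form with 1 more free position, GGTNANNNNNGGTCA, was written after the Abca1 promoter had been read, so that its match there was fixed by that choice and is no result of the search; 68 windows (0.207%) held it. The Abca1 promoter is shown as that of the member with the clearest difference between cells, with this stretch marked. The sequence is from RefSeq (GRCm38.p6), chr4:53159846-53160145 on the minus strand, 5′ to 3′, with the match, which reads on the opposite strand, in capitals from base -67 to base -53 relative to the gene's start.
Abca1 promoter: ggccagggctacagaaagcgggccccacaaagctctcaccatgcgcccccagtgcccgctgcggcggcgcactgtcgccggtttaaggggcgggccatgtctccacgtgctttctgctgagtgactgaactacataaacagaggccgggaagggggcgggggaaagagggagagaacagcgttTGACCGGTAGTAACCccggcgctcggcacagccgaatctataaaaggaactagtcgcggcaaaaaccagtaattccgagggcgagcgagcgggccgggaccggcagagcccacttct
The 3 Apoe promoter entries held neither form in these windows, and Lpl and Abcg1 were not searched.

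The series held 3005 cells, 121 to 687 per library, and 438777 to 3260120 UMIs per library. Microglia by the deposited labels numbered 630 in acute helpless, 569 in acute non-helpless, 552 in non-shocked, 499 in chronic non-helpless, 372 in recovered and 99 in non-recovered mice, with median depths from 2497 (non-recovered) to 4580 UMIs (recovered). Microglia of every library held UMIs of all 7 listed microglial genes, such as Tmem119 and P2ry12. Neutrophil markers summed to 22472 CPM (UMIs of a gene scaled to a common library total) in the non-recovered microglia and 981 CPM in the chronic non-helpless ones, and to at most 9.61 CPM in the others. Astrocyte markers stayed between 200 and 287 CPM, with Slc4a4 and Ntsr2 at 0. The acute helpless library was deposited as batch 1, acute non-helpless as batch 2, the chronic libraries as batch 3, and the non-shocked library as a mix of batch 2 (123 microglia, median 905 UMIs) and batch 3 (429, median 3906 UMIs). Acute helpless cells therefore share a batch with no other library, and there group and batch cannot be told apart. Ribosome-poor microglia, with under 2.5% ribosomal UMIs, made up 40.4% of the non-shocked and 52.5% of the non-recovered microglia but 8.79 to 15.9% of the others. Across the libraries, 5 barcode sequences occurred in more than 1.

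In microglia, Apoe stood at 525 CPM in the non-shocked library (984 UMIs, 95% interval 493 to 559), 517 CPM in acute helpless, 376 CPM in chronic non-helpless, 374 CPM in acute non-helpless, 290 CPM in non-recovered and 167 CPM in recovered mice (289 UMIs, 149 to 188). The non-shocked and acute helpless libraries were highest with overlapping intervals, the 2 non-helpless libraries lay together below them, and the recovered library was lowest, with an interval below those of all the others. The share of microglia with at least 1 Apoe UMI ran from 21.5% (recovered) to 40.5% (acute helpless). After each cell was thinned to 1000 UMIs, which left out 121 of 2721 microglia, it was 21.3% in acute helpless, 17.8% in non-shocked, 16.6% in non-recovered, 14.3% in chronic non-helpless, 13.6% in acute non-helpless and 10.1% in recovered microglia. Acute helpless was thus highest and recovered lowest at equal depth as well.

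Lpl gave fewer UMIs, at 62.4 CPM in chronic non-helpless (133 UMIs, 52.2 to 74.0), 49.4 CPM in acute non-helpless, 47.0 CPM in non-shocked (88 UMIs), 43.9 CPM in acute helpless, 32.9 CPM in non-recovered (10 UMIs, 15.8 to 60.5) and 20.3 CPM in recovered microglia (35 UMIs, 14.1 to 28.2). The recovered library was again lowest. Of the others, the first 4 in this order had overlapping intervals, and the non-recovered value rests on too few UMIs to be placed. Between 8.06% (recovered) and 10.5% (acute helpless) of microglia had an Lpl UMI, or 1.88 to 3.55% after thinning.

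For the exporter Abca1, the order of the libraries was a different one. It was highest in non-recovered microglia at 395 CPM (120 UMIs, 327 to 472), followed by chronic non-helpless at 304 CPM, non-shocked at 292 CPM, acute non-helpless at 263 CPM, recovered at 229 CPM and acute helpless at 195 CPM (530 UMIs, 179 to 213). Each neighbouring pair among the middle 4 overlapped in its intervals. Abcg1 was likewise highest in non-recovered microglia at 98.7 CPM (30 UMIs, 66.6 to 141), with 69.9 CPM in non-shocked, 58.2 CPM in chronic non-helpless, 56.9 CPM in acute non-helpless, 56.4 CPM in acute helpless and 51.0 CPM in recovered microglia (40.9 to 62.8). The last 4 did not differ beyond their intervals. An Abca1 UMI was found in 48.0 to 61.9% of microglia and an Abcg1 UMI in 18.3 to 25.3%, with 20.4 to 31.6% and 4.65 to 9.65% after thinning.

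Counts in lymphocyte barcodes were taken as a background for such shares, and whether they come from free RNA was not tested. In 81 T, B and NK cell barcodes with under 0.5% of UMIs in the 7 microglial markers (median 4718 UMIs, against 3987 in microglia), 11.1% had an Apoe UMI (104 CPM), 4.94% an Abca1 UMI (9.24 CPM) and 12.3% an Abcg1 UMI (30.0 CPM). None had an Lpl UMI, where 3 counts would be 6.93 CPM. All microglia together stood above this at 401, 45.1, 257 and 59.5 CPM of Apoe, Lpl, Abca1 and Abcg1, and the shares of microglia with a UMI were 29.4, 9.48, 53.4 and 19.7%. In the recovered library the same lymphocytes had 206 CPM of Apoe (18 cells and 25 UMIs, 15 of them in 1 cell, 133 to 304), no less than the 167 CPM of its microglia. How much of the Apoe in recovered microglia is free RNA was not tested.

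**Figure D1:**
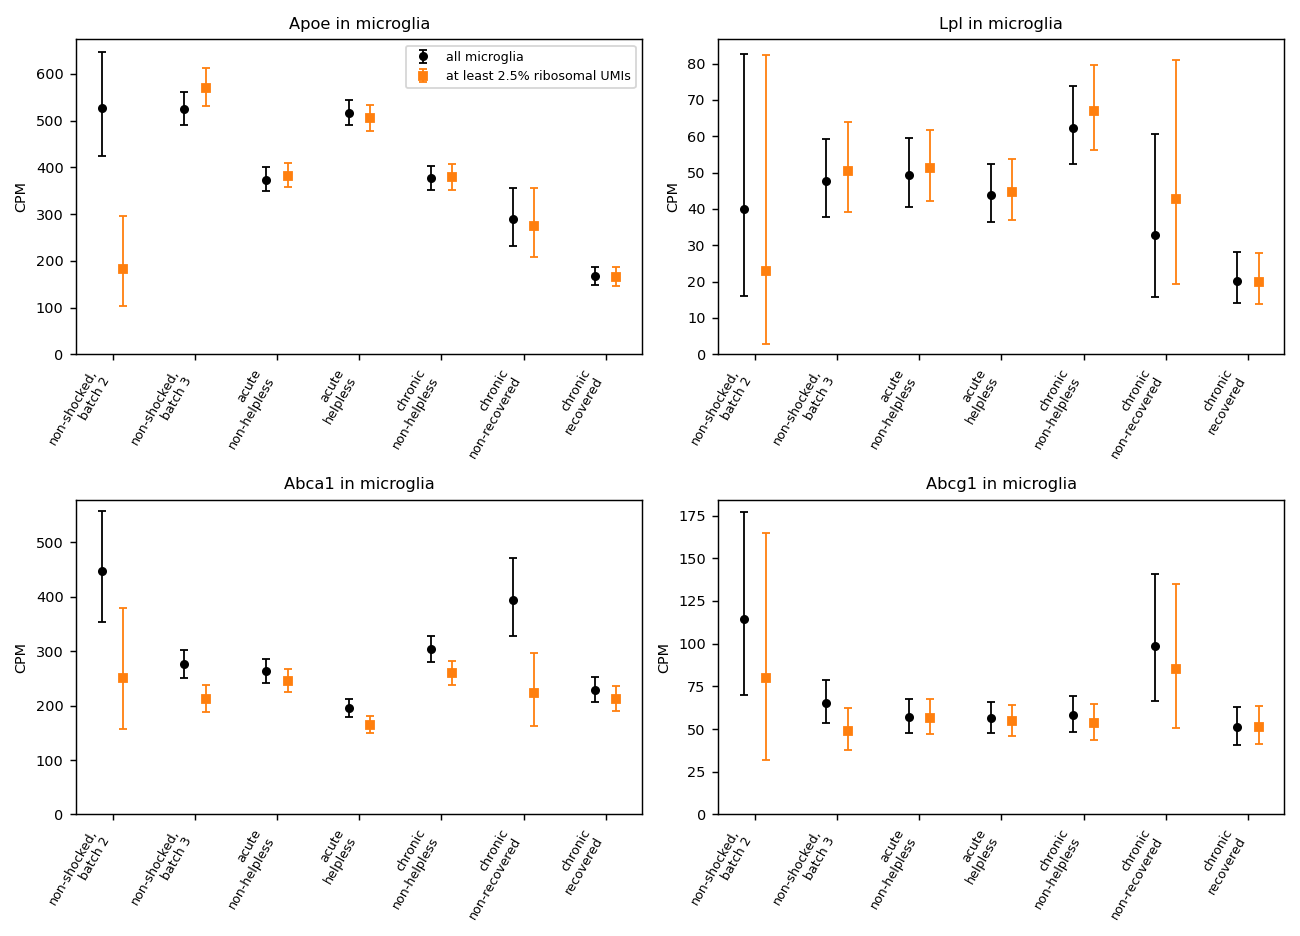
Levels of the 4 members in microglia, in CPM with exact 95% Poisson intervals, for the 2 batches of the non-shocked library and the other 5 libraries; black circles are all microglia and orange squares those with at least 2.5% ribosomal UMIs. Apoe and Lpl are lowest in the recovered library in both populations, but in the orange squares their intervals overlap those of batch 2. The high Abca1 of batch 2 and of the non-recovered library is not seen in the orange squares.

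The chronic groups address what separates mice that recovered, did not recover or were never helpless. Recovered microglia had less Apoe and Lpl than chronic non-helpless microglia, by 2.25-fold (1.96 to 2.58) and 3.08-fold (2.11 to 4.61). Abca1 was lower by 1.32-fold (1.17 to 1.5) and Abcg1 by 1.14-fold (0.862 to 1.52). Thus 2 of the 4 members were at least 1.5-fold apart, the size used here to call a difference, against 7.25% of the 6927 genes at 20 CPM or more in 1 of the libraries (3.2% lower in recovered). Both libraries are of batch 3. With at least 2.5% ribosomal UMIs the folds were 2.28 and 3.37, again 2 of 4 members, against 7.33% of genes. Both calls end when the cells of deposited cluster 5 are left out, where 8.4% of all genes were called. Apoe was then 1.37-fold lower (1.17 to 1.59) and Lpl 1.27-fold lower (0.80 to 2.03). Cluster 5 was made from the same cells' expression, was rich in both genes and lay only in the non-helpless libraries. Leaving it out therefore lowers the chronic non-helpless side only. Without microglia that carry border macrophage markers the Apoe fold was 1.74.

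Non-recovered microglia were higher than recovered ones in Abcg1 (1.94-fold, 1.24 to 2.96), Apoe (1.73-fold, 1.35 to 2.2), Abca1 (1.72-fold, 1.39 to 2.12) and Lpl (1.62-fold, 0.717 to 3.35). All 4 members were past 1.5-fold, but so were 39.6% of the 7455 genes tested (27.1% higher in non-recovered), and the Lpl interval includes no difference. Limited to at least 2.5% ribosomal UMIs, which leaves 47 non-recovered microglia, the Abca1 ratio was 1.05 (0.757 to 1.43), Apoe was 1.65-fold higher (1.22 to 2.2), and 3 of 4 members were past 1.5-fold against 34.2% of genes, Lpl (0.899 to 4.57) and Abcg1 (0.939 to 2.78) with intervals that include no difference. Between non-recovered and chronic non-helpless microglia, Abcg1 was 1.70-fold higher (1.10 to 2.54) and Lpl 1.90-fold lower (1.00 to 4.05), while Apoe was 1.30-fold lower and Abca1 1.30-fold higher. These 2 calls stand beside 36.9% of 7507 genes past the same size. With at least 2.5% ribosomal UMIs the same 2 members were past it, against 36% of genes, on 9 Lpl and 18 Abcg1 UMIs and with intervals that include no difference (0.805 to 3.52 and 0.911 to 2.65). Without cluster 5, Lpl turned to 1.28-fold higher in non-recovered microglia, and Abcg1 was the 1 member called, beside 35.6% of genes. That removal takes Lpl-rich cells from the chronic non-helpless side only. The median of all genes tested lay at a log2 ratio of 0.16 in the comparison of non-recovered with recovered microglia. Neutrophil and monocyte markers (22472 and 885 CPM) were higher in the non-recovered library than in any other. A marker check left out microglia with at least 20 neutrophil marker UMIs or under 0.5% of UMIs in microglial markers. With it Abcg1 was 1.78-fold higher in non-recovered than in chronic non-helpless microglia. All 4 members stayed higher in non-recovered than in recovered microglia in each of 12 alternatives, the marker check among them. The part of the monocyte markers, and of the neutrophil UMIs that pass this check, was not tested.

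Compared with non-shocked microglia of batch 3, the recovered library had 3.14-fold less Apoe (2.74 to 3.59; 167 against 525 CPM) and 2.35-fold less Lpl (1.56 to 3.60; 20.3 against 47.7 CPM). Abca1 (1.20-fold lower) and Abcg1 (1.28-fold lower) stayed under 1.5-fold, which 16.4% of 7243 genes reached in either direction and 12.9% as lower. The Apoe and Lpl calls held in all 13 alternatives tried, with folds from 2.66 to 3.44 and from 2.04 to 2.53; with at least 2.5% ribosomal UMIs they stand beside 14.5% of genes. Non-recovered microglia were 1.81-fold lower in Apoe (1.46 to 2.28) and 1.51-fold higher in Abcg1 (0.974 to 2.28), where 27.6% of 7579 genes were past 1.5-fold; with at least 2.5% ribosomal UMIs these were 2.08- and 1.74-fold, beside 30.6% of genes. Both calls ended with cells weighted equally (Apoe 1.34-fold, Abcg1 1.35-fold; Lpl and Abca1 were called instead) or thinned to 1000 UMIs (Apoe 1.38-fold, Abcg1 1.22-fold; Abca1 was called instead). For chronic non-helpless microglia 0 of the 4 were past it, against 17.1% of 7320 genes, with Apoe 1.4-fold lower (1.27 to 1.54) and Lpl 1.31-fold higher (0.986 to 1.75). With at least 2.5% ribosomal UMIs Apoe was 1.51-fold lower (1.36 to 1.67), the 1 member called beside 17.2% of genes. Outside cluster 5 the same library was 2.3-fold lower in Apoe (2.04 to 2.59) and 1.85-fold lower in Lpl (1.28 to 2.72) than non-shocked microglia, beside 17% of genes. That removal takes Apoe- and Lpl-rich cells from the chronic non-helpless side only, so nothing is read from the direction of this change.

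In the acute groups, helpless microglia had 1.38-fold more Apoe (1.27 to 1.51) and 1.34-fold less Abca1 (1.19 to 1.51) than non-helpless ones, with Lpl 1.13-fold lower (0.862 to 1.47) and Abcg1 equal within 1.01-fold (0.791 to 1.28). None of the 4 reached 1.5-fold, against 18.2% of 6907 genes, nor with at least 2.5% ribosomal UMIs, against 19.5%. Outside cluster 5 the Apoe fold was 2.44 (2.18 to 2.73) and Lpl turned to 1.70-fold higher (1.21 to 2.42), beside 19.7% of genes. That removal takes Apoe- and Lpl-rich cells from the non-helpless side only, so nothing is read from the direction of this change. Acute helpless against all non-shocked microglia also gave 0 calls beside 29% of 7106 genes, and beside 22.9% with at least 2.5% ribosomal UMIs; Abca1 was 1.49-fold lower (1.32 to 1.69), and the median of all genes lay at a log2 ratio of -0.16. Acute non-helpless against the 123 non-shocked microglia of batch 2 gave 1.70-fold less Abca1 (1.33 to 2.16) and 2.02-fold less Abcg1 (1.19 to 3.24) beside 56.7% of 7759 genes, with the median of all genes at -0.27. In the 45 of those non-shocked cells with at least 2.5% ribosomal UMIs, Apoe was at 183 CPM (16 UMIs) in place of 527, and the acute non-helpless library was then 2.10-fold higher (1.28 to 3.68), with the Abca1 difference at 1.02-fold. Apoe and Lpl were then past 1.5-fold, on 16 and 2 non-shocked UMIs, beside 51.4% of genes. Over all microglia Apoe was instead 1.41-fold lower in acute non-helpless (1.12 to 1.75). It was also lower there with cells thinned to 1000 UMIs (2.48-fold) and with cells weighted equally (1.73-fold). Outside cluster 5 it was 2.49-fold lower, where all 4 members were called beside 54.9% of genes. That removal takes Apoe-rich cells from the acute non-helpless side only. The sign differed from that over all microglia in 2 of 13 alternatives, so these data give no stable direction for Apoe here.

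The 2 batches of the non-shocked library show how far cells of 1 group lay apart. Apoe was the same in both, at 527 and 525 CPM, but Abca1 was 1.62-fold (1.26 to 2.06) and Abcg1 1.75-fold (1.03 to 2.84) higher in batch 2. With at least 2.5% ribosomal UMIs, Apoe was instead 3.13-fold lower in batch 2 (1.91 to 5.50). Several folds between groups above are no larger than these.

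**Figure D2:**
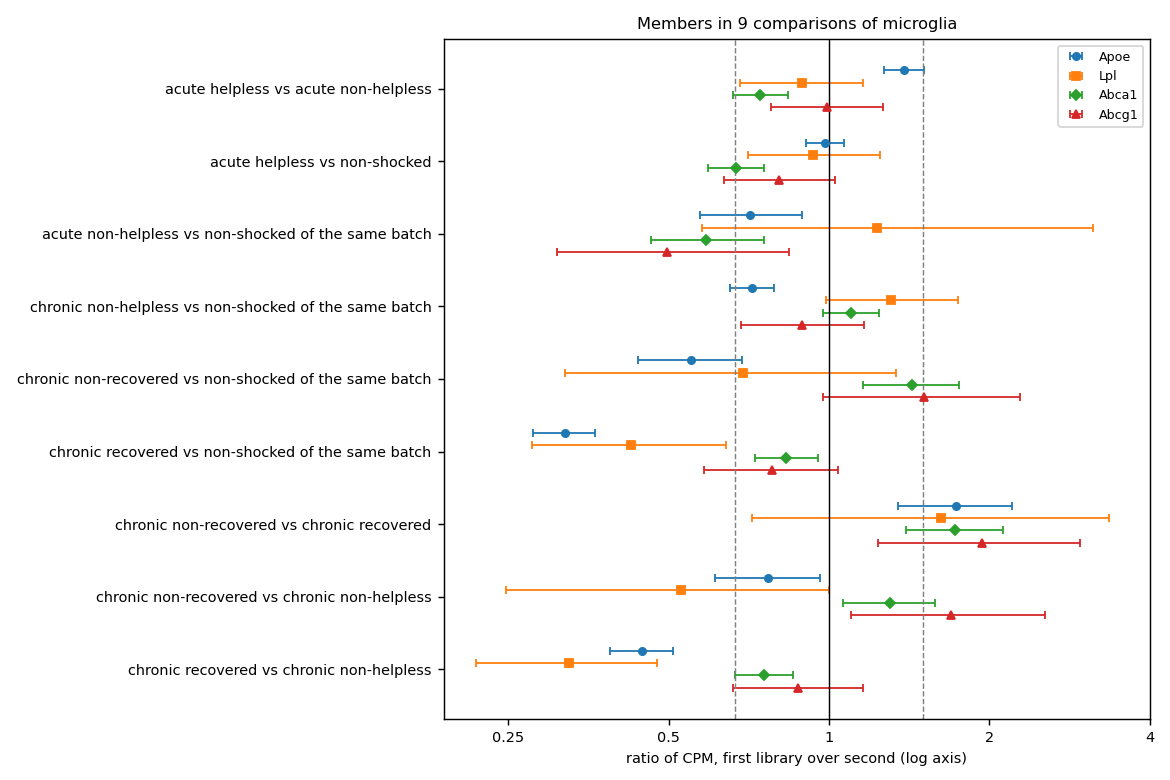
Ratio of CPM of each member in 9 comparisons of microglia, first library over second, on a log axis with conditional exact 95% intervals; dashed lines mark 1.5-fold. Apoe and Lpl lie left of the dashed line in the comparisons of recovered microglia with non-shocked and with chronic non-helpless cells, and all 4 lie right of it for non-recovered against recovered.

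Levels also differed between the deposited microglial clusters; since clusters come from the same cells' expression, their levels are a description. Cluster 5 held 121 acute non-helpless and 96 chronic non-helpless microglia (21.3 and 19.2% of these libraries) and none of the other 4 libraries. There Apoe was at 1202 CPM in acute non-helpless and 1145 CPM in chronic non-helpless cells, and Lpl at 170 and 253 CPM. Those cells carried 52.6 and 49.0% of their libraries' microglial Apoe UMIs and 56.3 and 65.4% of the Lpl UMIs. Outside cluster 5, the 2 non-helpless libraries had 212 and 229 CPM of Apoe and 25.8 and 25.7 CPM of Lpl, below the non-shocked and acute helpless libraries and nearer the recovered one. Abca1 (205 and 326 CPM) and Abcg1 (53.9 and 52.4 CPM) in cluster 5 lay within the range of the other clusters over all libraries.

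Of the 18 other measured genes of the disease-associated microglia list, 7 were at least 1.5-fold higher in cluster 5 than in the other microglia of both libraries, where 1.92% of all 6403 genes were; the cluster was made from these genes, so nothing is read from the count. Of these, 4 reached 20 CPM in at least 1 of the 2 libraries only through cluster 5, among them Axl, a receptor for dying cells, with 7 and 5 UMIs outside it. The 3 that reached it outside cluster 5 too were Cd63, a lysosomal membrane protein (2.17- and 2.75-fold), Cd52, a surface glycoprotein (2.51- and 2.60-fold), and Fth1, a ferritin chain (1.66- and 1.71-fold). Besides the members, 0 of 8 LXR genes and 0 of 13 sterol efflux genes were.

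Cluster 2 was shared by 4 libraries, and there acute helpless microglia had 959 CPM of Apoe, while chronic non-helpless, acute non-helpless and recovered cells had 187, 161 and 154 CPM. There acute helpless stood 5.95-fold above acute non-helpless (4.79 to 7.46), against 1.38-fold over all microglia. In acute helpless, 1 barcode of 169 UMIs held 12.1% of the microglial Apoe. The 2 libraries are of different batches, 1 and 2, and no share of all genes is given for cluster 2. In acute non-helpless, 52.6% of the Apoe UMIs lay in cluster 5, which acute helpless lacks. The fold in cluster 2 thus depends on how cells were split into clusters, and nothing further is read from it. Chronic non-helpless and recovered cells of cluster 2 differed by 1.21-fold in Apoe (1.00 to 1.47) and 1.28-fold in Lpl (0.740 to 2.19). In cluster 1, Apoe was at 485 CPM in non-shocked, 293 CPM in acute helpless, 279 CPM in non-recovered, 222 CPM in acute non-helpless and 208 CPM in chronic non-helpless cells, so the non-shocked library was highest there. Abca1 was highest in clusters 3 and 6, in which 64.9 to 95% of cells were ribosome-poor. It ran from 370 CPM (acute helpless) to 752 CPM (chronic non-helpless) in cluster 3 and from 418 CPM (non-shocked) to 657 CPM (non-recovered) in cluster 6, against 222 CPM and 203 CPM over all cells of clusters 1 and 2.

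**Figure D3:**
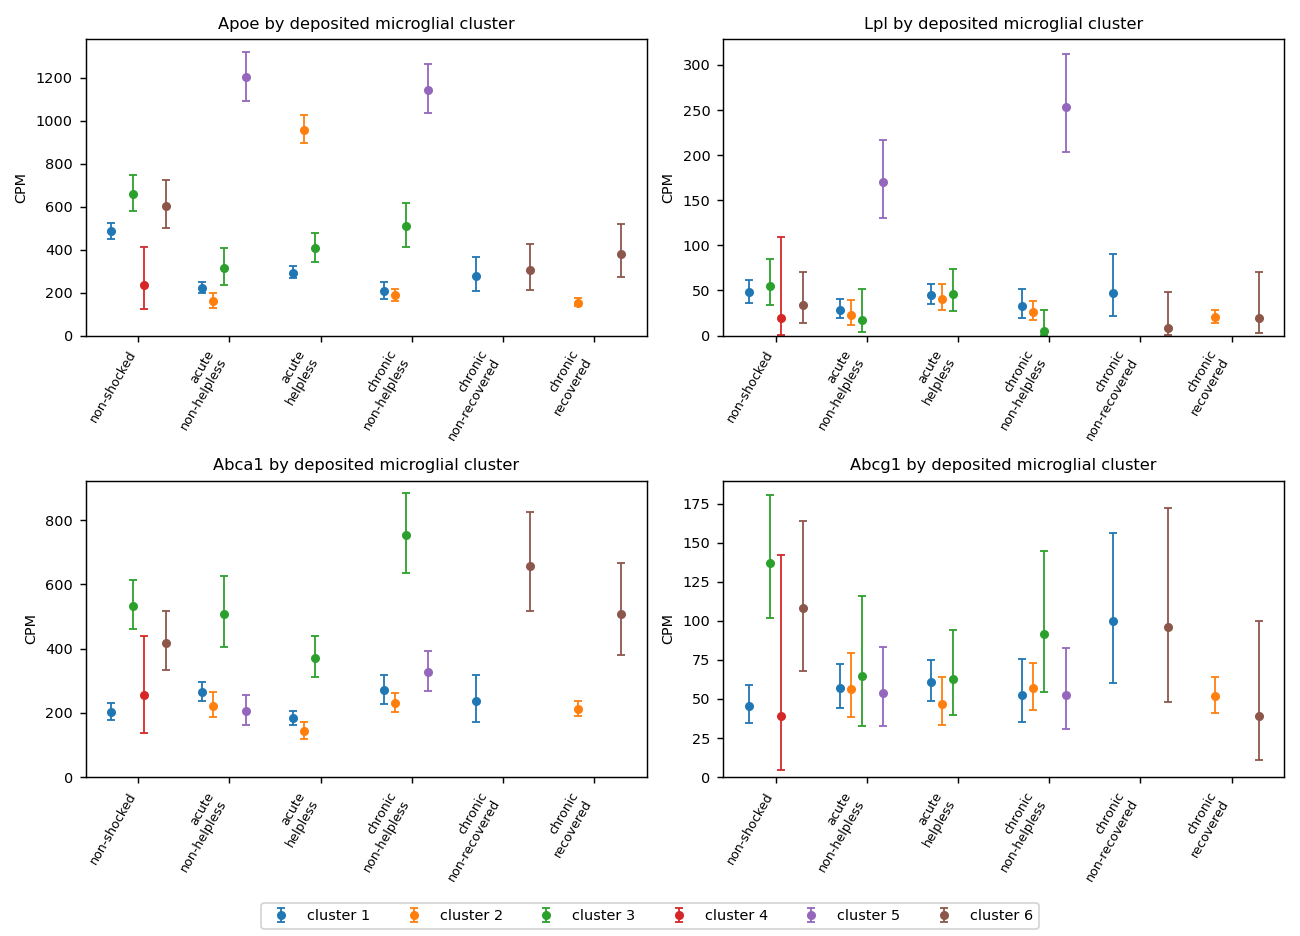
Levels of the 4 members by library and deposited microglial cluster, in CPM with exact 95% Poisson intervals, for groups of at least 20 microglia. Apoe and Lpl peak in cluster 5, which 2 libraries hold, Apoe is also high in cluster 2 of the acute helpless library, and Abca1 is high in clusters 3 and 6.

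Apoe was concentrated in few cells. The fewest cells that held 50% of the Apoe UMIs were 22 of the acute helpless, 14 of the recovered, 12 of the acute non-helpless, 11 of the non-shocked, 10 of the chronic non-helpless and 5 of the non-recovered microglia. In that order these were 3.49, 3.76, 2.11, 1.99, 2.00 and 5.05% of each library's microglia. For Abca1 the same count, in that order, was 93, 55, 73, 65, 78 and 13 cells, so Abca1 was spread far more evenly. Microglia with at least 10 Apoe UMIs numbered 27 in acute helpless (4.29%), 26 in non-shocked (4.71%), 19 in acute non-helpless (3.34%) and 15 in chronic non-helpless mice (3.01%), against 5 in recovered (1.34%) and 1 in non-recovered mice (1.01%). In the first 4 of these libraries such cells had 124, 170, 273 and 277 CPM of Lpl, against 39.2, 34.0, 24.4 and 43.3 CPM in microglia without an Apoe UMI; the other 2 libraries had 1 Lpl UMI in such cells. Over all libraries Lpl was at 31.7 CPM in cells with 0 Apoe UMIs, 51.4 CPM in cells with 1 to 9 and 184 CPM in cells with at least 10. Neither exporter followed this order, with Abca1 at 262, 250 and 241 CPM and Abcg1 at 59.7, 59.7 and 54.7 CPM.

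Border macrophages, which line vessels and meninges and are known to be rich in Apoe, were rare among these cells. Only 8 microglia had at least 3 UMIs of 7 border markers (Mrc1, Pf4 and Ms4a7 among them), and they held 468 of the 4413 microglial Apoe UMIs (10.6%) but 1 Lpl UMI. The top chronic non-helpless barcode had 183 Apoe UMIs, 22.8% of its library's, and 35 border marker UMIs. Border marker levels in microglia ranged from 5.79 CPM (recovered) to 26.3 CPM (chronic non-helpless), with Lyve1 at 0. Without the 8 cells, Apoe over all libraries was 360 CPM and Lpl 45.2 CPM.

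Outside microglia, Apoe was highest in the 25 barcodes deposited as macrophages, at 6762 CPM. Of these, 5 with border markers held 61 to 121 UMIs each and 91.9% of the class's Apoe, and 11 of the other 20 had none. The 42 monocyte barcodes had 2897 CPM, from 784 CPM in recovered to 17414 CPM in acute non-helpless cells (4 barcodes) and 0 in the 1 non-recovered barcode, and 8 of them with border markers held 74.6% of it. T cell barcodes had 451 CPM of Apoe, 30.1 CPM of Lpl, 134 CPM of Abca1 and 43.6 CPM of Abcg1. The 116 of 161 T cell barcodes with at least 0.5% microglial markers had 490 CPM of Apoe, and the 45 others 152 CPM with 0 Lpl UMIs. NK cells (39) had 177 CPM and B cells (17) 68.0 CPM of Apoe. These classes hold too few cells per library for a comparison of groups.

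**Figure D4:**
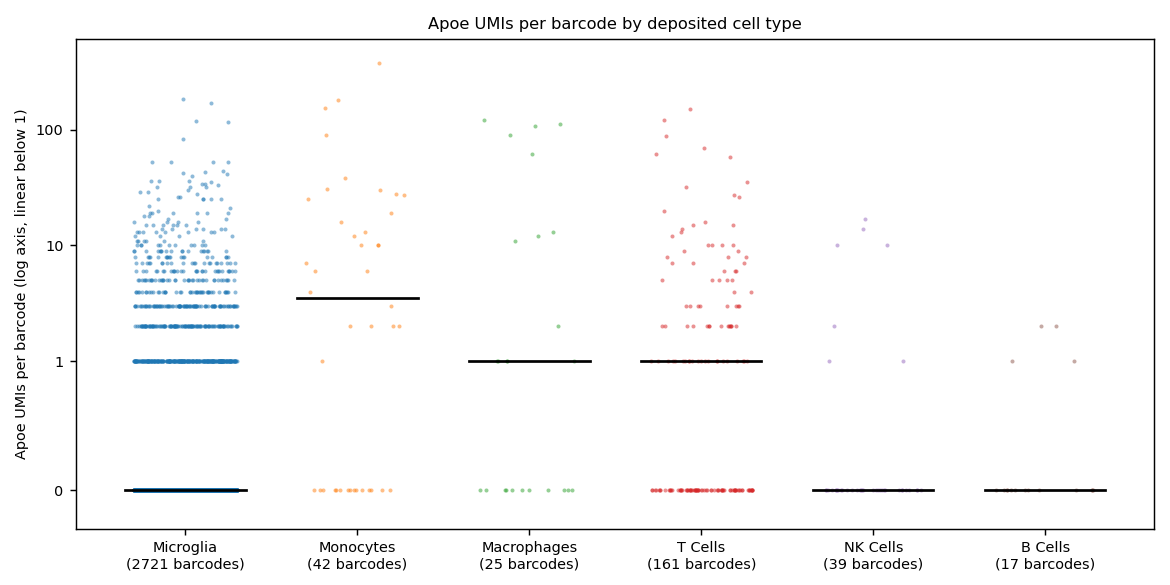
Apoe UMIs per barcode in each deposited cell type, on a log axis that is linear below 1; each point is a barcode, moved sideways at random, and black lines are medians. Most microglia have no Apoe UMI, a few hold over 100, and the macrophage class splits into 5 barcodes of 61 to 121 UMIs and 20 of 0 to 13.

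Within a library, ribosome-poor microglia can be set beside the other microglia, which gives 6 pairs and a test; it was added after the data were seen. The non-shocked pair mixes 2 batches in unequal shares, as 78 of 123 cells of batch 2 and 145 of 429 of batch 3 were ribosome-poor. Abca1 was higher in the ribosome-poor cells of every library, at 834 against 259 CPM in chronic non-helpless, 787 against 223 CPM in non-recovered, 716 against 246 CPM in acute non-helpless mice, 687 against 164 CPM in acute helpless, 629 against 212 CPM in recovered and 547 against 215 CPM in non-shocked microglia. The 2 sets of values did not overlap. The log2 difference was 1.41 (SE 0.12, adjusted p = 5.2e-20, edgeR quasi-likelihood with library as a block, 5515 genes). Lpl was lower by a log2 difference of -1.16 (SE 0.31, adjusted p = 0.00085, edgeR) on 27 UMIs in 538 ribosome-poor cells, and lower in 5 of 6 libraries. Abcg1 was higher by 0.62 (SE 0.21, adjusted p = 0.0068, edgeR), also in 5 of 6 libraries. Apoe was lower by -0.32 (SE 0.14, adjusted p = 0.038, edgeR) but only in 3 of 6 libraries. In the non-shocked library its 2 batches went opposite ways, with 875 CPM in ribosome-poor against 183 CPM in other cells of batch 2, and 347 against 571 CPM in batch 3. With batch 2 left out, the Apoe difference was -0.42 (adjusted p = 0.0056, edgeR), and Lpl (-1.29), Abca1 (1.42) and Abcg1 (0.62) passed as well. Of all genes, 31.2% passed as higher and 32.5% as lower.

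The Apoe call was lost with DESeq2 (adjusted p = 0.11), without the block (adjusted p = 0.55), with at least 1000 UMIs per cell (adjusted p = 0.18) and without the non-shocked, the acute non-helpless or the chronic non-helpless library, and the Abcg1 call with DESeq2 (adjusted p = 0.24) and without the non-shocked library (adjusted p = 0.089). Ribosome-poor microglia were shallower (median 1484 to 2097 UMIs per library, against 3841 to 4725) and had a higher mitochondrial share (median 1.26 to 2.79%, against 0.873 to 1.34%); the part of RNA quality in these differences was not tested.

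Genes of the same pathways moved in both directions in the ribosome-poor cells, where 31.2% of all genes rose and 32.5% fell. Without the members, 7 of 13 sterol efflux genes tested rose and 1 fell, with a median log2 difference of 0.43 against -0.01 over all genes. Those that rose included the transporters Abca9 (1.34) and Abca3 (1.20), Npc1, which moves cholesterol out of lysosomes (1.02), and Soat1, which esterifies it (0.94), and the lysosomal partner Npc2 fell (-0.90). Of 15 disease-associated microglia genes other than Apoe and Lpl, 14 fell, among them Tyrobp (-2.11), the lipid receptor Trem2 (-0.83), Cd52 (-2.73) and the ferritin gene Fth1 (-2.58), and Csf1 rose (0.83), for a median of -0.87. The lipoprotein receptor genes Lrp1 (1.04) and Lrp5 (1.41) rose. In all 5 of 10 uptake receptors rose and 4 fell, and 6 of 15 fatty acid genes fell, among them the lipase Pnpla2 (-1.05) and the droplet coat gene Plin2 (-0.63), and Acsl1 (0.64) rose. The shares that fell, 40% in both lists, were near the 32.5% of all genes.

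**Figure D5:**
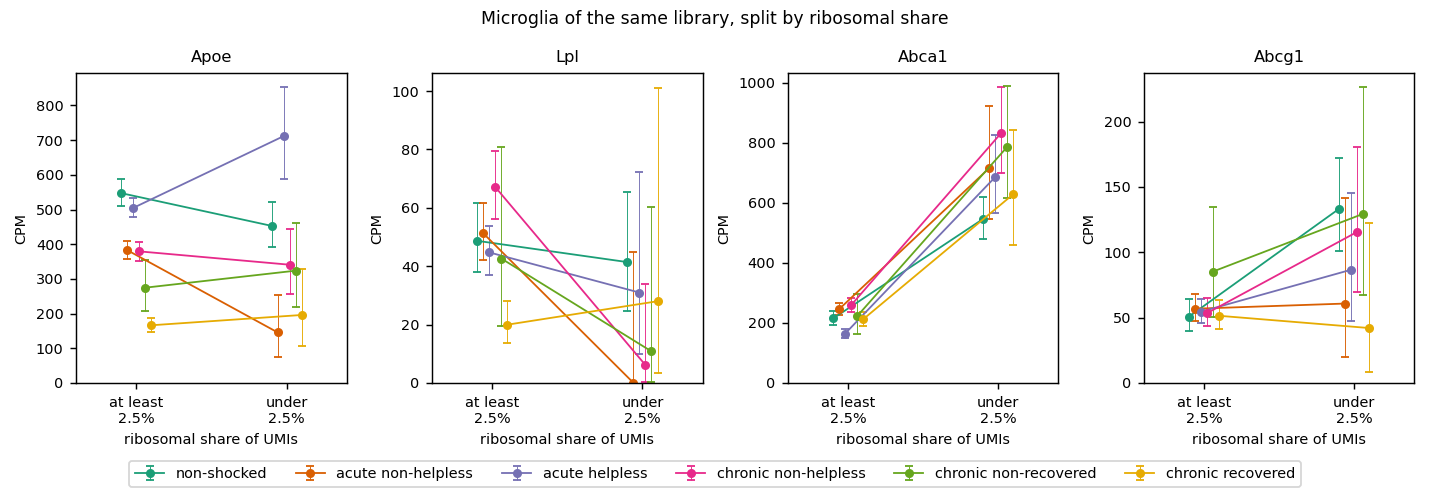
Levels of the 4 members in microglia with at least and under 2.5% ribosomal UMIs of the same library, in CPM with exact 95% Poisson intervals; each line joins the 2 values of a library. Abca1 is higher on the right in all 6 libraries, and the other members are not uniform.

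The other lipid genes were compared between the same groups, with the shares of all genes given above as background. In recovered against chronic non-helpless microglia, 3 of 13 measured LXR genes were at least 1.5-fold lower, namely Lpl, Apoe and Srebf1, a regulator of lipid synthesis (1.74-fold, 1.15 to 2.67). Of all genes 3.2% were lower, and Lpl and Apoe are the members given above. Of 15 sterol efflux genes 0 were apart. Lgals3, a lectin of disease-associated microglia, was 12.4-fold lower (3.99 to 62.4; 1.74 against 21.6 CPM). It reached 20 CPM only in the chronic non-helpless library, where 37 of its 46 UMIs lay in cluster 5 and the level outside it was 5.03 CPM. Lrp10, a receptor of the lipoprotein receptor family, was 1.96-fold higher (1.52 to 2.53). In recovered against non-shocked cells of batch 3, Apoe and Lpl were the 2 of 13 LXR genes past 1.5-fold. Both are members, and 16.4% of all genes were past it, so the count is near the background. Lrp10 (2.41-fold) and Lrp5 (2.09-fold) were lower too. Lrp10 was also 3.38-fold higher in acute helpless than acute non-helpless microglia (204 against 60.4 CPM) and 4.59-fold higher in non-recovered than chronic non-helpless ones (224 against 48.8 CPM). In non-recovered against recovered microglia 6 of 13 LXR genes were higher and 0 lower, beside 27.1% of all genes higher. The 6 include the 4 members, so the count adds little to what is given above. Of 17 disease-associated microglia genes 8 were lower and 2 higher, the 2 being Apoe and Lpl, where 39.6% of all genes were past 1.5-fold in either direction. Cd9 (1.71-fold, 1.5 to 1.96) and B2m (1.79-fold, 1.51 to 2.14) were among the lower. Against the non-shocked cells of batch 2, acute non-helpless microglia had 0 higher and 11 lower of 17 sterol efflux genes, Abca9 among them (2.69-fold, 2.23 to 3.23). Of all genes 56.7% were past 1.5-fold in either direction, so the count in both directions together is near the background. The share of all genes that were lower is not given here, so nothing is read from the direction.

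Patterns over 19 groups of at least 20 microglia of 1 library and cluster were compared by Pearson's r among 3541 genes, as a description; groups of 1 library share its depth and cells. Apoe was most like the antigen presentation genes Cd74 (0.74) and H2-Aa (0.60), the chemokine gene Cxcl16 (0.61), Pld3 (0.58) and the cathepsin gene Ctsb (0.56). Lpl was most like Ctsb (0.85), Cxcl16 (0.82), Cd83 (0.78), Cd63 (0.78) and C3ar1 (0.73), and its r with Apoe was 0.63. Abca1 was most like Akap10 (0.96), Pnpla7 (0.96), Sltm (0.95), Frmd4b (0.95) and Abcc5 (0.95), and the genes most like Abcg1 included Secisbp2 (0.84), Itpkb (0.83), Faf2 (0.83) and Ppp1r9a (0.79). Abca1 had an r of 0.54 with Abcg1, 0.10 with Apoe and -0.40 with Lpl. The r of Abcg1 was 0.14 with Apoe and -0.12 with Lpl, so neither exporter followed Apoe or Lpl closely over these groups.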

How the data were processed

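The authors deposited raw UMI counts per gene and cell, with cell types, clusters and batches; per the submitters' processing notes the build mm10, Seurat 2.3.4 and Cell Ranger 2.2.0 are named; filtering, clustering and batches are not described in the sources used here. Per the labels' protocols, hippocampi without meninges and choroid plexus were dissociated, passed over Percoll, and live CD45+ cells were sorted. Deposited totals of UMIs and genes per cell are counts too, and UMI sums equalled them in all 3005 cells.

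The UMIs of each deposited cell type were added up within a library and expressed as CPM (Python 3.11.15, scipy 1.17.1). Levels have exact Poisson, shares exact Clopper-Pearson and ratios conditional exact 95% intervals; UMIs of 1 library measure no variation between mice. A gene was compared if it reached 20 CPM in either library, and a difference was called at 1.5-fold. In the folds of members and named genes a count of 0 was set to 3. In the shares and medians of all genes and the list counts between libraries, every count under 3 was set to 3. Non-shocked cells were limited to the other library's batch where it had one. Listed genes were named where at least 1.5-fold apart with at least 30 UMIs in the higher library, up to 4 per list, and genes like a member were the 5 with the highest Pearson's r of log2(CPM + 10); genes of cluster 5 and of the ribosome-poor test were named after their values were seen. Symbols found under only 1 of 2 annotations (944) were left out of the acute helpless against non-shocked background and of the likeness ranking. Ribosome-poor and other microglia were summed per library and tested with edgeR 4.0.16 (quasi-likelihood, TMM, Benjamini-Hochberg; DESeq2 1.42.0 as an alternative), with the library as a block because both sums of a pair come from 1 library. Scripts were tested on simulated data. Scrublet called 56 of 3005 cells doublets, 50 of them microglia, and they were kept. Clec7a was not analysed here, and 1 gene that the likeness rule names is not reported here. The members and lists were chosen with earlier results of these data known, and the border marker, top barcode, cluster 5, batch 3 and ribosome-poor alternatives were added after seeing the data.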

Additional observations from a re-analysis of the deposited data

Results flagged for a closer look

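Helpless or non-recovered microglia over non-helpless microglia gave opposite directions in the acute and chronic paradigms for 2 members. Apoe had a ratio of 1.38 between acute helpless and acute non-helpless and of 0.769 between non-recovered and chronic non-helpless microglia. For Abca1 the ratios were 0.744 and 1.30. With 1 library per group, the difference between the paradigms was not tested. Outside cluster 5 the Apoe ratios were 2.44 and 1.27, both above 1. Cluster 5 lay only in the 2 non-helpless libraries and was rich in Apoe, so leaving it out raises both ratios. Nothing further is read from their shared direction. With at least 2.5% ribosomal UMIs the Abca1 ratios were 0.669 and 0.858, both under 1. The interval of the second includes no difference (0.623 to 1.16).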

How the results depend on the processing

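No paired analysis was possible because each group had 1 library, except between ribosome-poor and other microglia of the same library. Of 456 ratios recomputed under alternatives, 407 stayed inside the counting interval of the reported value, 21 moved by over 1.5 times and 29 changed sign; the cause was not tested. The share of all genes called was recomputed outside cluster 5 and with at least 2.5% ribosomal UMIs, and not for the other alternatives, whose counts of members at least 1.5-fold apart therefore stand without a background. Outside cluster 5 they became 0 (from 2) for recovered against chronic non-helpless, 2 (from 0) for acute helpless against acute non-helpless, 2 (from 0) for chronic non-helpless and 4 (from 2) for acute non-helpless against non-shocked cells of the same batch, and 1 (from 2) for non-recovered against chronic non-helpless, where the Lpl ratio reversed to 1.28. Leaving out cluster 5 takes Apoe- and Lpl-rich cells from the non-helpless side only, so nothing is read from the direction of these changes. Acute helpless against acute non-helpless gave 1 with cells weighted equally, with cells thinned to 1000 UMIs or with the marker check, which leaves out 18 microglia. Acute helpless against non-shocked gave 1 with cells weighted equally, under 5% mitochondrial UMIs or without border marker cells, and 2 against batch 2. Acute non-helpless against non-shocked gave 1 with median-of-ratios size factors or a 2-fold threshold and 0 against all non-shocked cells, while thinning, the marker check and leaving out border marker cells gave 3. Chronic non-helpless against non-shocked gave 1 with at least 2.5% ribosomal UMIs, without border marker cells or without the top barcode. Non-recovered against non-shocked gave 1 when thinned (Abca1), with totals without mitochondrial and ribosomal genes, with at least 1000 UMIs or against all non-shocked cells (Apoe). At 2-fold, non-recovered microglia gave 0 in each of their 3 comparisons. For ribosome-poor cells without the replicate block, the log2 differences were -0.26 (Apoe), -1.14 (Lpl), 1.41 (Abca1) and 0.59 (Abcg1), with 3084 genes changed in place of 3510. Apoe was at -0.21 with at least 1000 UMIs and -0.42 with DESeq2, and Abcg1 at 0.44 with DESeq2. With each library left out in turn, Apoe ranged from -0.49 to -0.13, Lpl from -1.26 to -0.83 (it fell under the filter without the non-shocked library), Abca1 from 1.30 to 1.61, Abcg1 from 0.48 to 0.72 and the number of genes changed from 2488 to 4166. Depth limits Lpl most, at 10 UMIs in non-recovered and 35 in recovered microglia.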
